A study of Mus musculus with 5 samples.

Results

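Collagens and laminins are the structural proteins of the extracellular matrix, and the genes that encode them were followed through the differentiation of mouse embryonic stem cells into motor neurons. All genes with a mouse probe on the array whose symbol reads Col, a number, a and a number, or Lama, Lamb or Lamc and a number, were taken. This gave 53 genes, 42 collagens and 11 laminins, of 19893 genes with a matched probe. The choice used symbols alone and no measured value. The reference list holds 55 such symbols, and Col12a1 and Col6a3 were left out because none of the probes could be matched to them.

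Collagens are triple helices of 3 chains, and the class of a chain says what it builds. Fibrillar collagens form the cable-like fibrils of connective tissue, type IV collagens form the sheet-like network of basement membranes, and further classes form beaded filaments, anchoring fibrils, fibril-associated molecules (FACIT collagens) or span the cell membrane. Laminins are trimers of an alpha, a beta and a gamma chain that cells assemble on their surface through integrins and dystroglycan, and they are laid down before the type IV collagen network attaches to them. In the early embryo and in embryoid bodies the first basement membrane lies between endoderm and epiblast, and in the neural tube a basement membrane surrounds the neuroepithelium.

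Every group was a wild-type male cell population, measured on 1 one-colour Agilent array, so no time point had a replicate and no p-value was computed. ES denotes undifferentiated embryonic stem cells. Per the labels, Day2 denotes embryoid bodies (EBs) after 8 h of retinoic acid (RA), Day3 and Day4 denote EBs after 1 day and 2 days of RA, and Day7 denotes motor neurons (MN) after 5 days of RA. In the labels' protocol RA and Shh were given between day 2 and day 5, a shorter exposure than the one stated for Day7, and the paper has the agonist SAG in place of Shh. The tissue field of Day7 still reads embryoid bodies, no sort for motor neurons is named for these samples, and in such bulk samples fewer cells of a type and less RNA per cell cannot be told apart. The paper names an Hb9::GFP stem cell line among those it cultured, without tying it to these arrays.

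Some features of the arrays touch every result. Only the Day7 array was on another slide, and its slide cannot be told apart from its time point. The Day2 array stood apart, with 86.7% of its mouse probes well above background against 57.5 to 65.7% on the others, and with 64.6% of its 96 ERCC control probes well above background against 4.17 to 9.38%. Signals are given as log2 intensity after quantile normalization, which gives each array the same distribution. A probe "not well above background" failed the scanner's own test on that array. Changes are differences in log2 signal of 1 probe between 2 arrays, followed by the fold, and the error after ± is the scanner's estimate for the spots of both arrays, which had a median of 0.21 and does not cover differences between cultures. Genes "rose" or "fell" where the change reached 2-fold, a fixed rule of size. Where a probe was dim on 1 side, the fold against the detection level of that array is written as "at least". Signals of different probes are not compared with each other. The summed signal of a marker list is the log2 of the sum, on the linear scale, of its genes well above background on that array. The genes summed can thus differ between arrays, and the brightest probe weighs most.

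Motor neuron genes were higher at the last time point than at Day4, and so were floor plate genes. All 5 motor neuron genes with a probe (Isl1, Lhx3, Chat, Slc18a3 and Slc5a7) rose from Day4 to Day7, where 17.8% of all genes rose. All 5 floor plate genes rose too. From ES to Day7 5 of 6 pluripotency genes fell, the exception being Nanog, where 24.4% of all genes fell.

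Upstream sequences are shown for the genes whose changes are described most fully below. Col4a1 and Col4a2 come first because they lie head to head on chromosome 8 and moved together. Their ends overlap, with annotated starts 21 bases apart for 1 transcript of each. For this pair 30 bases ahead of the start of Col4a2 are shown, within the annotated Col4a1. They were cut to begin at the CCAAT box, so its presence there was fixed by the choice. They are followed by the 150 bases before the annotated start of Col1a2, Col3a1 and Col8a2, which rose strongly, and of Col6a1 and Col7a1, which fell after Day4. The sequences are from RefSeq on GRCm38.p6 and read 5′ to 3′ on the strand of the gene. Capitals mark matches on either strand to TATAAA, the TATA box, or to CCAAT, the CCAAT box, or to GGGCGG, the GC box, or to AGGTCA, the half-site that nuclear receptors such as RA receptors bind.
Col4a1 and Col4a2, chr8:11312773-11312802, plus strand, the strand of Col4a2: CCAATttgttggcgctgccccctcccctcg
Col1a2, chr6:4505468-4505617, plus strand: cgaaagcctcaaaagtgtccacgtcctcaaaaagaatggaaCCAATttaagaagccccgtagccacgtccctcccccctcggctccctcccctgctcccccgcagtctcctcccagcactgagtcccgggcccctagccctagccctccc
Col3a1, chr1:45311388-45311537, plus strand: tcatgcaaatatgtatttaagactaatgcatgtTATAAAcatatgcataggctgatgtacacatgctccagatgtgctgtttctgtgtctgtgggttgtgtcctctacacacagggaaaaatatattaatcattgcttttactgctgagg
Col8a2, chr4:126286644-126286793, plus strand: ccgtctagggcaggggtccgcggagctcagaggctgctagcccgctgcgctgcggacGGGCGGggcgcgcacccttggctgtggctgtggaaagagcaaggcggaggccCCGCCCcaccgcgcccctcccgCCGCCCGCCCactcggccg
Col6a1, chr10:76726045-76726194, minus strand: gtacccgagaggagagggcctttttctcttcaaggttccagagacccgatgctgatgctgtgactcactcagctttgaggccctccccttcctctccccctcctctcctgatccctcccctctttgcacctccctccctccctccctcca
Col7a1, chr9:108953436-108953585, plus strand: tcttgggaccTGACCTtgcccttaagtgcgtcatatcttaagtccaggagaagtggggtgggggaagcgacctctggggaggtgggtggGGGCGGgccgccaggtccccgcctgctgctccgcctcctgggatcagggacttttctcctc

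The CCAAT box shown for this pair began 32 bases before the start of Col4a2, inside the annotated Col4a1. Col4a5 and Col4a6 also lie head to head, on chromosome X, with starts 1343 bases apart. RefSeq windows were given for 40 of the 53 genes, 44 windows in all. A GC box lay in 21 of the 44 windows (47.7%) against 28.6% of 32851 windows of the same length, a CCAAT box in 8 (18.2%) against 24.5%, a TATA box in 4 (9.09%) against 7.57%, and an AGGTCA half-site in 6 (13.6%) against 8.58%. Each share describes letters in a window and was not tested.

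The first question was which matrix genes moved while the cells went from ES to RA-treated EBs. From ES to Day4 more collagens rose than fell, the largest rises being those of Col1a2, Col4a2, Col3a1, Col2a1 and Col6a1, and laminins moved in both directions. Of the 44 collagen and laminin genes with a value, 21 rose and 4 fell. Over all genes 15.4% rose and 14.2% fell in this comparison. Collagens made up 19 of the 21 rises, with a median change of 1.23 over 33 collagens, while 2 of 11 laminins rose and 2 fell, with a median of -0.20. The median over all genes was 0.01. With no normalization the median over all genes was -1.07, and the split of these genes became 13 risen and 14 fallen (48.1% risen against 84% in the quantile setting), although their median still lay 1.07 above that of all genes. With normexp background correction the split was 94.1% risen.

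**Figure D1:**
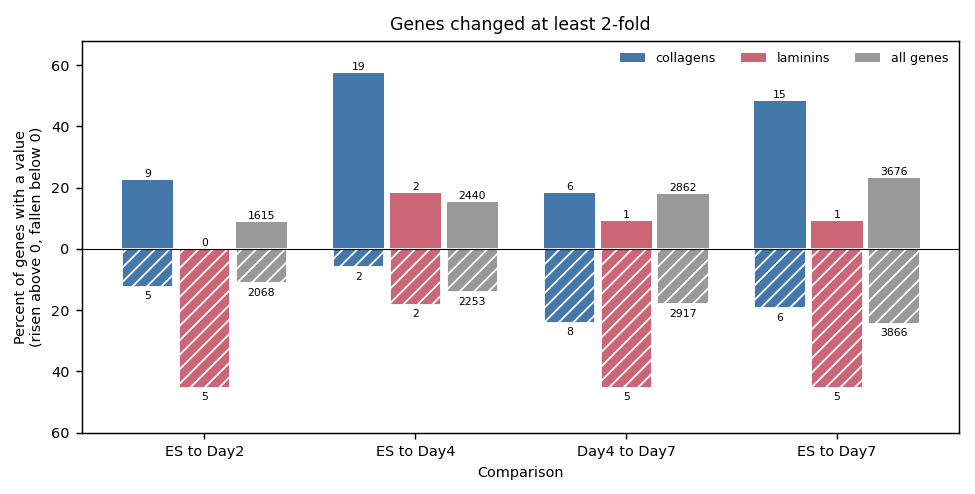
Percent of collagen (blue), laminin (red) and all matched genes (grey) that rose at least 2-fold (solid, above 0) or fell at least 2-fold (hatched, below 0) in each comparison of 2 arrays, with the number of genes at each bar; genes with no value are left out. From ES to Day4 the bar of risen collagens holds 19 genes and that of fallen collagens 2, and from Day4 to Day7 the bar of fallen laminins holds 5 genes and that of risen laminins 1.

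Among the fibrillar collagens, Col1a2, the minor chain of type I collagen, had signals of 7.88 in ES, 8.77 at Day2, 10.82 at Day3, 11.80 at Day4 and 10.89 at Day7. It rose 15.1-fold from ES to Day4 (3.92 ± 0.21) and its 3 later signals all lay above its 2 early ones. Col1a1, the major chain of the same molecule, had signals of 8.31, 6.29, 8.61, 8.43 and 9.13 in the same order. Its change from ES to Day4 was 0.12 ± 0.21, within the scanner's error, so the partner chains of type I collagen differed in course, and the lowest Col1a1 signal fell on the Day2 array that stood apart.

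Col2a1, the chain of type II collagen known from cartilage, notochord and floor plate, had signals of 10.81 in ES, 11.88 at Day2, 13.84 at Day3, 13.85 at Day4 and 12.69 at Day7. It rose 8.23-fold from ES to Day4 (3.04 ± 0.20), with Day3 and Day4 differing by less than the scanner's error, and fell 2.24-fold to Day7. Col11a1, a minor chain of the same fibrils, had signals of 5.15, 3.71, 6.78, 7.49 and 6.98 and rose 5.07-fold from ES to Day4 (2.34 ± 0.35). Without normalization Col2a1 did not fall after Day4 (0.09). Of 5 cartilage genes, 3 were well above background in ES, 4 at Day4 and 2 at Day7, and Matn1 was on no array. Of the 4 with a value, 1 rose and none fell from ES to Day4, and none rose and 3 fell from Day4 to Day7, where 17.8% of all genes rose and 18.1% fell. Their summed signal was 8.96 in ES and 9.69 to 10.59 later, the last at Day7, where Sox9 alone gave 10.53. Sox9 was higher and Acan, Comp and Matn3 lower at Day7 than in ES, and the part of cartilage genes in these changes was not tested.

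Col3a1, the single chain of type III collagen of elastic connective tissue, had signals of 5.69 in ES, 5.41 at Day2, 4.87 at Day3 (not well above background), 8.92 at Day4 and 10.36 at Day7. It was low on the first 3 arrays and then rose, 9.38-fold from ES to Day4 (3.23 ± 0.30) and a further 2.71-fold to Day7 (1.44 ± 0.20). The first rise was 2.12 in the lowest alternative. Col5a2, which with Col5a1 starts type I fibrils, had signals of 3.88, 2.76, 2.11, 3.17 and 6.96 and was well above background at Day2 and Day7 only. It was at least 6.43-fold higher at Day7 than at Day4 (2.68 on the log2 scale, and 1.49 in the lowest alternative).

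Of the other 5 fibrillar chains, Col5a1, Col11a2 and Col27a1 rose from ES to Day4, by 2.34-fold, at least 3.73-fold and 2.45-fold. None of these rises held throughout: Col5a1 moved by 0.28 and Col27a1 by 0.43 without normalization, and the limit for Col11a2 was 0.48 with the ERCC detection level. Col24a1 was at least 1.66-fold higher, under the 2-fold rule, and Col5a3 changed by -0.80 ± 0.22. In all, 7 of 10 fibrillar chains with a value rose to Day4 in the quantile setting and none fell, beside 15.4% and 14.2% of all genes.

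The plot of collagen signals by array shows these courses beside those of the type IV chains and of the other classes.

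**Figure D2:**
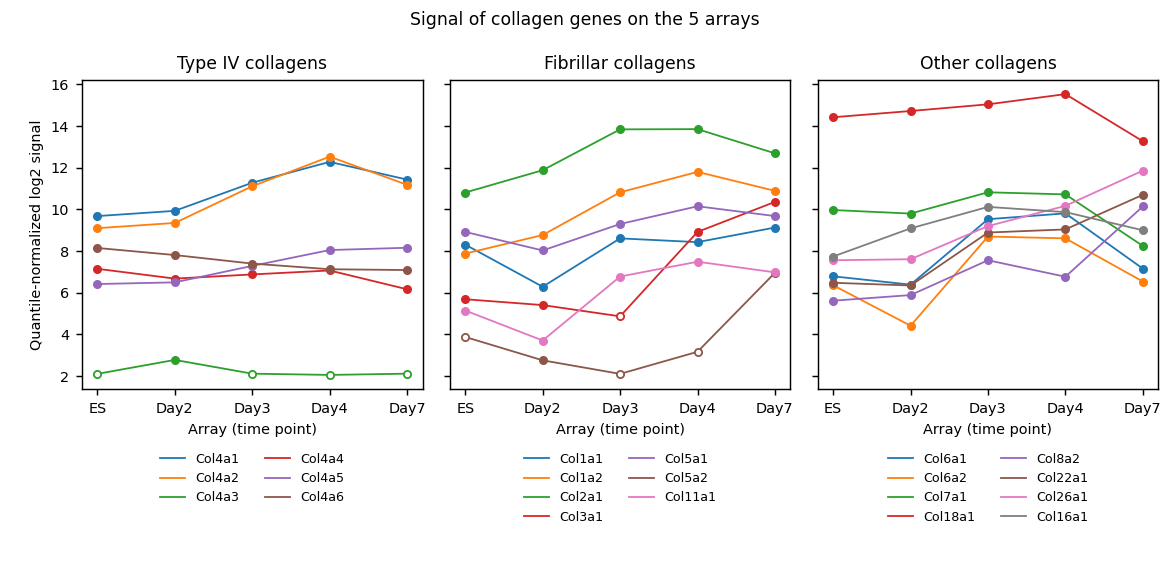
Quantile-normalized log2 signal of 21 collagen genes on the 5 arrays (1 array per time point, equally spaced though the days are not), with type IV chains on the left, fibrillar chains in the middle and chains of other classes on the right; filled points were well above background and open points were not. Col4a1 and Col4a2 run side by side to their highest point at Day4, Col6a1 and Col6a2 are high at Day3 and Day4 alone, and Col8a2, Col22a1 and Col26a1 are highest at Day7.

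Type IV collagens build the basement membrane network. Col4a1 had signals of 9.68 in ES, 9.93 at Day2, 11.28 at Day3, 12.28 at Day4 and 11.43 at Day7, and Col4a2, its partner in the same trimer, had 9.10, 9.35, 11.11, 12.53 and 11.18. Both differed little between ES and Day2 (0.25 ± 0.20 and 0.26 ± 0.20), rose 6.05-fold and 10.8-fold from ES to Day4, and were lower at Day7 than at Day4, by 1.81-fold for Col4a1, under the 2-fold rule, and 2.54-fold for Col4a2. Without normalization Col4a2 changed by -0.02 from Day4 to Day7.

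Col4a5, which joins the network of kidney and other specialised membranes, had signals of 6.42, 6.50, 7.29, 8.05 and 8.16 from ES to Day7. It rose 3.10-fold to Day4 (1.63 ± 0.24, and 0.78 without normalization) and stayed within the scanner's error thereafter (0.11 ± 0.21). Col4a6, its head-to-head neighbour, had signals of 8.15, 7.81, 7.40, 7.13 and 7.09 with its brighter probe and fell 2.02-fold to Day4 (-1.02 ± 0.21). Its second probe went the other way, at least 2.32 higher at Day4 than in ES on the log2 scale, so the direction of Col4a6 depended on the probe. Col4a4 had signals of 7.15, 6.68, 6.88, 7.07 and 6.17 and changed by less than 2-fold in each comparison. Col4a3 was well above background at Day2 alone (2.78).

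Type VI collagen builds beaded filaments next to basement membranes. Col6a1 had signals of 6.79 in ES, 6.39 at Day2, 9.53 at Day3, 9.81 at Day4 and 7.16 at Day7, and Col6a2 had 6.36, 4.42, 8.70, 8.61 and 6.54. Both were high at Day3 and Day4 and low on the other 3 arrays. They rose 8.10-fold and 4.75-fold from ES to Day4 and fell 6.29-fold and 4.20-fold to Day7, which left them 0.37 ± 0.24 and 0.18 ± 0.24 from ES. Without normalization Col6a2 changed by -0.94 from Day4 to Day7. Col6a5 had signals of 6.32, 7.83, 6.83, 3.18 and 4.67, the last 2 not well above background, and was at least 4.14-fold lower at Day4 than in ES. This limit was -0.99 on the log2 scale with normexp correction and 0.00 with the mean over its probes. Its second probe was dim on every array.

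Of the remaining collagens, Col26a1 had signals of 7.56, 7.61, 9.20, 10.17 and 11.86 from ES to Day7. It rose 6.12-fold to Day4 and a further 3.22-fold to Day7 (1.69 ± 0.20), and no signal lay below the one before it. Col22a1, a FACIT collagen known from junctions such as that of muscle and tendon, had 6.48, 6.35, 8.89, 9.04 and 10.70 and was 18.7-fold above ES at Day7 (4.22 ± 0.23). Col8a2, a network collagen known from the membrane beneath the corneal endothelium, had 5.62, 5.89, 7.56, 6.77 and 10.14 and rose 10.4-fold from Day4 to Day7 alone (3.38 ± 0.21). These 3 genes shared a highest signal at Day7, and Col8a2 had a second probe that was well above background on 1 array only.

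Col16a1, a FACIT collagen, had signals of 7.74, 9.09, 10.12, 9.87 and 9.00 and rose 4.38-fold from ES to Day4 (2.13 ± 0.21). Col23a1, a membrane-spanning collagen, had 5.30 in ES (not well above background), 4.14, 7.18, 7.45 and 6.56, and was at least 4.43-fold higher at Day4, though this limit was 0.87 on the log2 scale with the ERCC detection level or the mean over its probes and 0.99 with normexp correction. The ES signal of Col16a1 was its lowest, and both genes were higher at Day3, Day4 and Day7 than in ES. Col18a1, the basement membrane collagen whose end fragment is endostatin, had 14.42, 14.72, 15.04, 15.53 and 13.27 and rose 2.16-fold to Day4 (1.11 ± 0.20). That rise was 0.59 with the 75th percentile shift, which moves each array by a constant, -0.37 without normalization and 0.77 with its second probe.

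The second question was how the matrix genes stood at Day7, the unsorted sample labelled as motor neurons. From Day4 to Day7 7 of 44 genes rose and 13 fell. Over all genes 17.8% rose and 18.1% fell. The median change of these genes was -0.72 against -0.12 for all genes, with -0.51 over the collagens and -0.87 over the laminins. Without normalization the median of all genes was 1.06 in this comparison and the split of these genes turned to 17 risen and 5 fallen (77.3% risen against 35%), with a median 0.57 below that of all genes (-0.57).

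Among collagens, Col18a1 fell 4.82-fold (-2.27 ± 0.20) from Day4 to Day7 and Col7a1 fell 5.54-fold. Col7a1, the chain of the anchoring fibrils that tie epithelial basement membranes to the tissue below, had signals of 9.97 in ES, 9.80 at Day2, 10.82 at Day3, 10.72 at Day4 and 8.25 at Day7. Its Day7 signal was the lowest of the 5. Both probes of Col18a1 fell, the second by 2.62 on the log2 scale. Col9a1, which coats type II fibrils, had 4.22 in ES (not well above background), 5.76, 6.29, 4.61 and 6.79 and rose 4.52-fold from Day4 to Day7, while its second probe changed by 0.54.

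**Figure D3:**
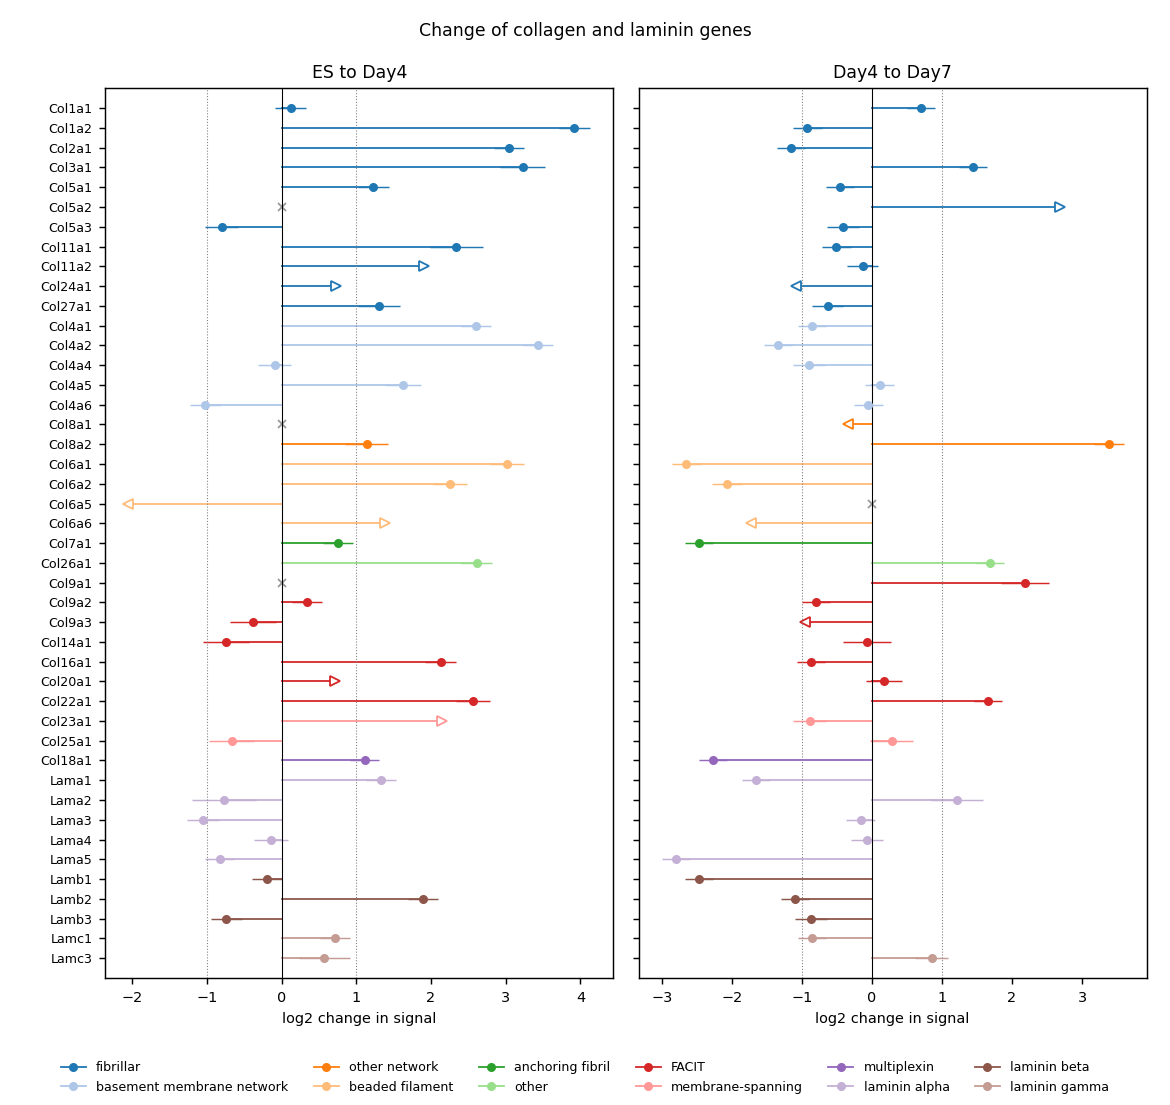
Log2 change in signal of collagen and laminin genes with a value in at least 1 of both comparisons, from ES to Day4 (left) and from Day4 to Day7 (right), coloured by class; bars are the scanner's error estimate, open arrowheads are lower limits of the size of a change against a dim signal, crosses are genes with no fold, and dotted lines mark 2-fold. Col1a2 has the longest rise on the left, 3.92, and Lama5, Col6a1, Lamb1 and Col7a1 have the longest falls on the right, -2.80, -2.65, -2.47 and -2.47.

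Laminin chains were read chain by chain, since a trimer needs one of each kind. Among alpha chains, Lama1, the chain of the first embryonic basement membranes, had signals of 12.50 in ES, 11.47 at Day2, 12.49 at Day3, 13.83 at Day4 and 12.18 at Day7. It rose 2.51-fold from ES to Day4 (1.33 ± 0.20) and fell 3.15-fold to Day7, ending 0.33 below ES (-0.33 ± 0.20). The rise was 0.96 with the 75th percentile shift, under the rule, and 0.00 without normalization, where the change from Day4 to Day7 was -0.39. Lama5, the most widely used alpha chain of later epithelia, had signals of 14.92, 14.11, 14.32, 14.08 and 11.28. It changed by -0.83 ± 0.20 up to Day4 and then fell 6.96-fold, so that Day7 stood 12.4-fold below ES and below every other array.

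Lama3, the alpha chain of skin-type laminin, had signals of 9.15, 8.73, 8.70, 8.09 and 7.93 and fell 2.08-fold to Day4 (-1.05 ± 0.21, and -0.88 with normexp correction). Its second probe fell too (-1.75). Lama4, known from blood vessels and peripheral nerve, had 6.78, 5.09, 7.52, 6.64 and 6.58 and differed between ES, Day4 and Day7 by no more than the scanner's error, the low value falling on the Day2 array. Lama2, the alpha chain of muscle and Schwann cells, had 5.40, 5.30, 5.08 (not well above background), 4.62 and 5.83, a narrow range, and its rise from Day4 to Day7 (1.21 ± 0.37) was 0.44 with its second probe.

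Among beta chains, Lamb1, the partner of Lama1 and Lama5 in the embryo, had signals of 14.14 in ES, 13.76 at Day2, 13.93 at Day3, 13.94 at Day4 and 11.46 at Day7. It moved by at most 0.38 from ES up to Day4 (-0.38 at Day2) and then fell 5.54-fold (-2.47 ± 0.20), as Lama5 did. Lamb2, the beta chain of synapses and of kidney, had 9.06, 9.07, 10.39, 10.96 and 9.85 and rose 3.71-fold from ES to Day4 (1.89 ± 0.20), then fell 2.15-fold, though without normalization the rise was 0.94 and there was no fall (0.23). Lamb3, the beta chain of skin-type laminin, had 7.90, 5.15, 7.20, 7.16 and 6.29 and was 3.06-fold lower at Day7 than in ES (-1.61 ± 0.23, and -0.96 with normexp correction).

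Among gamma chains, Lamc1, part of most laminins, had signals of 13.41 in ES, 13.54 at Day2, 14.01 at Day3, 14.11 at Day4 and 13.26 at Day7. It changed by less than 2-fold in each comparison and ended within the scanner's error of ES (-0.14 ± 0.20), unlike its usual partners Lamb1 and Lama5. Lamc3, a gamma chain known from retina and brain, had 5.37, 4.16, 6.19, 5.94 and 6.79 and was 2.68-fold above ES at Day7 (1.42 ± 0.33), the 1 laminin of 11 that rose between these arrays, and 0.63 above it with normexp correction.

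**Figure D4:**
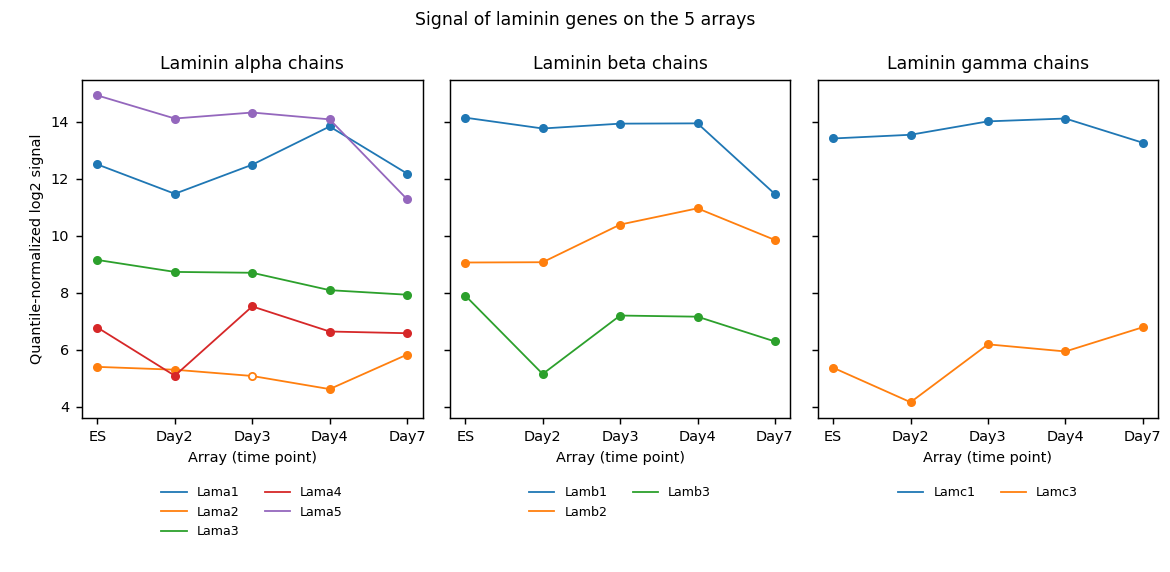
Quantile-normalized log2 signal of 10 laminin genes on the 5 arrays (1 array per time point, equally spaced though the days are not), with alpha chains on the left, beta chains in the middle and gamma chains on the right; filled points were well above background and the open point was not. Lama5 and Lamb1 stay high up to Day4 and drop at Day7, and Lamc1 stays between 13.26 and 14.11.

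From ES to Day7, the span of the whole series, 16 of 42 genes rose and 11 fell, where 23.2% of all genes rose and 24.4% fell. Collagens had 15 rises and 6 falls of 31, and laminins 1 rise and 5 falls of 11, among them the falls of Lama5 and Lamb1. Lama3 and Lamb3, which belong to the laminin of hemidesmosomes, fell by 2.32-fold and 3.06-fold. The median was 0.88 over collagens, -0.33 over laminins and -0.07 over all genes. Without normalization 71.4% of the changed collagen and laminin genes had risen, against 59.3% with it.

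From ES to Day2, which spans the forming of EBs as well as their 8 h of RA, 9 of 51 genes rose and 10 fell, while over all genes 8.82% rose and 11.3% fell. The laminins held 5 of the falls, among them those of Lama1, Lama4 and Lamb3. These counts rest on the array that stood apart: 15 rose and 5 fell with the 75th percentile shift (75% risen against 47.4%, and 70.2% against 43.9% over all genes), 20 rose and 3 fell without normalization, and 2 rose and 3 fell after normexp correction. Of the 19 changes, 3 held under all alternatives run, among them a rise of Col16a1 (2.55-fold) and a fall of Lamb3 (6.71-fold, or -2.75 on the log2 scale, and -1.27 without normalization). Col11a1 and Lamc3, which fell in the quantile setting, were 0.38 and 0.45 higher than in ES with the 75th percentile shift.

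Most of these genes were detected at some point. On all 5 arrays 31 of 53 were well above background, as were 13467 of all 19893 genes, and Col19a1 was on none. At Day2 alone 7 collagens were (Col4a3, Col6a4, Col10a1, Col13a1, Col15a1, Col17a1 and Col28a1), with signals of 2.78 to 7.28, as were 2188 of all genes. Of the remaining chains, Col9a2, Col14a1 and Col25a1 changed by less than 2-fold from ES to Day4, Day4 to Day7 and ES to Day7, Col20a1, dim in ES, was at least 1.64-fold higher at Day4 and at least 1.84-fold higher at Day7, Col9a3 was 5.72-fold lower at Day2 and at least 2.50-fold lower at Day7 than in ES, Col6a6 was at least 2.60-fold higher at Day4 than in ES and at least 3.33-fold lower at Day7 than at Day4, and Col8a1 was well above background at Day4 alone with no fold against ES. The first limit for Col6a6 was 0.00 with the ERCC detection level and the second -0.78 without normalization, where Col9a3 changed by -0.42 from ES to Day2, and the limit for Col9a3 at Day7 was -0.38 with normexp correction. Second probes differed from these values for Col20a1, which was at least 1.55 higher at Day4 than in ES and changed by -1.39 to Day7, for Col14a1, which was 2.51 higher at Day7 than at Day4 with its dimmer probe, and for Col25a1, which changed by -1.03 from ES to Day7 with 1 of its other probes.

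The array of the highest signal was Day3 for 10 and Day4 for 14 of the 52 genes detected (19.2 and 26.9%). Over all 18633 genes detected the shares were 12.1% for Day3 and 13.3% for Day4. ES was highest for 7 (13.5% against 21.9% of all genes), Day2 for 10 (19.2% against 25.8%) and Day7 for 11 (21.2% against 26.9%). Of the 7 genes highest in ES, 5 were laminins. With the 75th percentile shift Day2 was highest for 18 genes and Day4 for 12, and without normalization Day4 was highest for 3.

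Genes that make, anchor or cut the matrix were counted from lists of known roles. Of 17 genes for collagen modification and folding, 6 rose and 1 fell from ES to Day4, where 15.4% of all genes rose and 14.2% fell. The collagen chaperone Serpinh1 had signals of 11.67, 13.06, 14.11, 14.54 and 14.13 and was 5.50-fold above ES at Day7, P4ha1, P3h3 and Colgalt2 also rose over that span (3.45-fold, 2.34-fold and at least 4.79-fold), and Crtap and Fkbp10 fell (4.02-fold and 3.55-fold). Of 11 genes for procollagen cleavage and crosslinking with a value, 6 rose and 3 fell to Day4, against the same shares of all genes. By Day7 the procollagen protease Bmp1 stood 14.9-fold above ES, and Pcolce and Pcolce2, whose products help that protease, 9.04-fold and 19.6-fold below, with falls of Adamts14, Loxl1 and Loxl4 of 3.75-fold, 2.62-fold and at least 3.31-fold.

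Other basement membrane proteins had 5 rises and no fall among 14 genes from ES to Day4, beside 15.4% and 14.2% of all genes, and 5 rises and 3 falls to Day7, beside 23.2% of all genes risen and 24.4% fallen over the longer span. Fras1, Frem1, Fbln2, Smoc2 and Agrn were higher at Day7 than in ES (6.64-fold, at least 12-fold, 4.07-fold, 3.53-fold and 2.02-fold), and Smoc1, Nid2 and Hspg2, the perlecan gene, were lower (2.68-fold, 2.02-fold and 2.55-fold). Of 12 receptors, 5 rose and 1 fell to Day4, against the same 15.4% and 14.2%. From ES to Day7 2 of 10 receptors with a value rose and 3 fell, beside 23.2% and 24.4% of all genes. By Day7 the laminin receptors Itgb4, Bcam and Itga3 stood 6.13-fold, 6.15-fold and 2.53-fold below ES. Itga6, Itga7, Itgb1 and Dag1, which also bind laminins, changed by -0.18, 0.14, -0.26 and 0.32. The collagen receptors Itga11 and Ddr2 were 3.15-fold and at least 3.09-fold above ES, and Ddr1 changed by -0.16. Itgb4 is the integrin chain that binds the laminin in which Lama3 and Lamb3 take part. Of 9 matrix proteases and inhibitors, Mmp15, Timp2 and Timp3 rose to Day7 (5.92-fold, 12.5-fold and 3.15-fold) and Timp1 fell (7.69-fold).

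Markers of other cell types were counted on the same arrays. Of 8 fibroblast genes, 4 were well above background in ES, 5 at Day4 and 7 at Day7. Their summed signal was 10.42 to 11.50 up to Day4 and 12.82 at Day7, where Dcn alone gave 12.55. Col3a1 and Col5a2 had their highest signal at Day7, as did 26.9% of all genes detected. From Day4 to Day7 3 of 7 with a value rose (Dcn, Lum and Postn) and none fell, beside 17.8% and 18.1% of all genes, with a median of 0.26 and the largest rise that of Dcn (37-fold), and Lum and Postn were well above background at Day7 alone. Fbn1, Twist2, Thy1 and Pdgfrb changed by less than 2-fold from Day4 to Day7, and Thy1 was 11.6-fold lower at Day7 than in ES. Of 5 genes of meninges and mesoderm, 2 were well above background in ES and 3 to 5 later. Their summed signal was 10.95 at Day3, 11.41 at Day4 and 7.79 to 8.63 on the other arrays. Col6a1 was highest at Day4 and Col6a2 at Day3, as were 13.3% and 12.1% of all genes detected. T was not well above background from Day3 on. Their part in the changes was not tested.

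Of 10 genes of primitive and extraembryonic endoderm, 7 were well above background in ES and at Day7 and 9 on the arrays between, with a summed signal of 10.41 in ES, 11.75 at Day4 and 10.25 at Day7. From ES to Day4 3 of 9 with a value rose (Gata6, Sox17 and Pdgfra) and Amn fell, beside 15.4% and 14.2% of all genes. From Day4 to Day7 none of 9 rose and 4 fell (Gata4, Gata6, Sox17 and Sox7), beside 17.8% and 18.1%, and Afp was not well above background on any array. The 5 floor plate genes had a summed signal of 11.49 in ES, 12.72 at Day4 and 16.38 at Day7, over 3, 3 and 5 genes. All 5 rose from Day4 to Day7, beside 17.8% of all genes, and Shh was dim at Day4. Of 5 endothelial genes 3 were well above background at Day7 and Emcn was so at Day2 alone. From ES to Day7 1 of 4 with a value rose and 2 fell, beside 23.2% and 24.4% of all genes. Cdh5 was at least 11.8-fold higher, Tek at least 8.66-fold lower and Pecam1 2.96-fold lower. Of 5 genes of neural crest and Schwann cells 4 were well above background at Day7, with a summed signal of 9.50 to 10.98 over the arrays. Whether any of these cells contributed to the collagen and laminin signals was not tested.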

How the data were processed

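The authors deposited Agilent Feature Extraction 10.5.1 output for 5 arrays, with spot intensity already background-subtracted and detrended, and a table of log2 values. That deposited log2 table equalled the log2 processed signal minus the array's 75th percentile within 0.01 for 100% of probes. The paper's legend names Quantile analysis. Control and outlier spots were dropped, repeated spots merged by the mean of their log2 signal, and the 5 arrays quantile-normalized (limma 3.58.1 in R 4.3.3). Later steps used Python 3.11.15, numpy 2.4.6, pandas 2.3.3 and matplotlib 3.10.9, and were tested on simulated data. Symbols came from RefSeq accessions (GRCm38.p6), which matched 26300 of 55681 mouse probes. The probe with the highest mean stood for a gene, and 16 of the 53 genes had several. The detection level of an array was its lowest log2 value among probes well above background: 5.01 in ES, 2.66 at Day2, 5.22 at Day3, 4.27 at Day4 and 4.66 at Day7. A dim probe was raised to that level where its own value lay lower. A gene dim on both arrays had no value, and one whose brighter signal was at or under the level counted as 0 in medians with no fold given. None of these genes had a saturated spot.

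The collagen and laminin genes, the other lists and the tests were chosen with earlier results of these data known. Laminins and type IV collagens were named with every value, except 1 laminin that enters the counts and is not reported here by itself, other collagens where a change reached 4-fold from ES to Day4, Day4 to Day7 or ES to Day7, and other matrix genes where they changed 2-fold from ES to Day7. Col1a1, Serpinh1 values, the receptors that changed less and the single markers were picked after their values were seen. Alternatives were the 75th percentile shift, no normalization, quantile normalization without the Day2 or without the Day7 array, normexp with an offset of 50, the authors' table, the scanner's weaker detection flag, all probes kept however dim, both arrays above background, a detection level from the 95th percentile of the ERCC probes, the mean or the dimmest probe of a gene, thresholds of 1.5-fold and 4-fold, and medians without genes that had no fold. With 1 array per time point, the number of arrays limits the precision.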

Additional observations from a re-analysis of the deposited data

Results flagged for a closer look

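ERCC probes, which detect synthetic RNAs added to some samples and match no mouse gene, were well above background for 64.6% of 96 probes on the Day2 array, against 7.29% on the ES array and 4.17 to 9.38% on the arrays other than Day2. They are data outside the comparisons of the report and were picked out because their level was above that of the undifferentiated cells. The 7 collagens well above background at Day2 alone were detected on this array.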

How the results depend on the processing

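No paired analysis was possible because there was 1 array and no replicate at any time point. For the same reason no replicate could be left out and slide could not be fitted as a block. The settings without the Day2 or the Day7 array left every count of changed genes run for them within 1.5 times the reported one. Of 91 changes of at least 2-fold, 35 stayed past 2-fold in the same direction under all alternatives run for them. The cause of the differences below was not tested.

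Without normalization, 20 collagen and laminin genes rose and 3 fell between ES and Day2 (median 0.61), from ES to Day4 13 rose and 14 fell (median 0.00), from Day4 to Day7 17 rose and 5 fell (median 0.48), and Day2 and Day4 held the highest signal of 18 and 3 genes. With the 75th percentile shift and with the deposited log2 values alike, the ES to Day2 counts were 15 risen and 5 fallen, and Day2 held the highest signal of 18 genes. With normexp correction the ES to Day2 counts were 2 risen and 3 fallen, 1 fell from ES to Day4 and 6 fell from ES to Day7. With the ERCC detection level, and with probes above background on both arrays, 5 rose from ES to Day2. With the mean over probes and with the dimmest probe alike, 2 fell from ES to Day4.

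At 1.5-fold, 10 fell from ES to Day4 and 23 from Day4 to Day7. At 4-fold, the counts were 1 risen and 4 fallen from ES to Day2, 12 risen and 1 fallen from ES to Day4, 3 risen and 7 fallen from Day4 to Day7, and 6 risen and 3 fallen from ES to Day7.

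Single genes changed sign as follows. From ES to Day2, Col11a1 and Lamc3 moved by 0.38 and 0.45 with the 75th percentile shift and with the deposited values, and by 0.61 and 0.68 without normalization. Without normalization Col18a1 moved by -0.37 from ES to Day4, and Col2a1 and Lamb2 by 0.09 and 0.23 from Day4 to Day7. Col4a6 moved by 0.65 to Day4 and 0.13 to Day7 from ES with the mean over its probes, and by 2.32 and 1.32 with its dimmer probe. Col9a1 moved by -0.26 from ES to Day7 with its dimmer probe.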
